A study of Mus musculus with 19 samples.

Results

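The 35 genes described here encode proteins that carry a cell into mitosis, build and check the spindle, and divide the daughter cells. They were taken by symbol from a set list of mitosis and cytokinesis genes, with Ensembl identifiers matched to GENCODE symbols on mm10, and the rule uses no measured value. The list was still drawn up with earlier results of these data known. Shares of the 35 set beside those of all genes are therefore descriptions. All 35 were found among the 55401 gene identifiers counted in each library, and all 35 passed the filter on low counts that left 18039 genes for testing. Polyadenylated RNA of C2C12 cells, an established mouse myoblast line of wild-type genotype, was sequenced in 19 bulk libraries of 7 groups. Thapsigargin, an inhibitor of the SERCA calcium pump that empties the calcium store of the endoplasmic reticulum, was given at 100 nM for 2 h (3 libraries), 6 h (3 libraries) or 12 h (2 libraries). A recovery group of 3 libraries had 6 h of thapsigargin and then 48 h without it. Cells given the vehicle DMSO were sampled at 2 h (3 libraries), 6 h (3 libraries) and 12 h (2 libraries). No DMSO group here was kept for the same total time as the recovery cells, so effects of recovery cannot be told apart from those of longer culture. Nothing in the labels says that replicates came from separate dishes, and the p-values may therefore measure technical spread only.

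Most genes of this kind are transcribed in a wave that begins in S phase and peaks in G2 and mitosis. Before that wave the DREAM complex holds them silent. Later the MuvB core of the complex joins B-MYB and FOXM1 and activates them, through a promoter element called the cell cycle genes homology region (CHR). NF-Y, which binds CCAAT boxes, takes part as well. The products include CDK1 with its cyclins, which start mitosis, the kinetochore and spindle checkpoint proteins, and the motors and scaffolds of the central spindle and cleavage furrow. Dividing myoblasts express this set and shut it off when they leave the cell cycle to form muscle fibres.

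RefSeq promoters (GRCm38.p6, 250 bases before to 50 after the gene's start) were found for 29 of the 35 genes. Ccna2, Foxm1, Aurkb, Incenp, Tpx2 and Kif20a had no entry. They were searched on both strands for CHR, written TTTGAA or TTCGAA, and for CCAAT. A CHR of either form stood in 23 of the 29 (79.3%), against 19.3% of 26742 promoters of the same length and 14.1% of 11759 promoters of tested genes. CCAAT stood in 22 of the 29 (75.9%), against 37.9% of all promoters, and 15 of the 29 (51.7%) held it at 2 or more places, against 12.1% of all. Both motifs stood in 20 of the 29 (69.0%), against 7.69% of all promoters and 6.00% of those of tested genes. The 7 windows that follow run from 150 bases before the start to 30 after it, each read 5′ to 3′ on the gene's own strand, with both motifs in capitals. On the other strand CCAAT reads as ATTGG and the CHR TTTGAA as TTCAAA, as in Ttk. Cdk1, Ccnb2, Ttk, Spc25 and Mki67 hold both motifs, Ccnb1 holds CCAAT alone, and Birc5 holds neither, while the RNA of all 7 was lower under thapsigargin at 12 h.
Cdk1, chr10:69352883-69353062, minus strand: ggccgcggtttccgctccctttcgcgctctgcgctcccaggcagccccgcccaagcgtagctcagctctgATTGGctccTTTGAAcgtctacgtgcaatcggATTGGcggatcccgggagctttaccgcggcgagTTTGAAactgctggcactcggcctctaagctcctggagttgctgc
Ccnb2, chr9:70421525-70421704, minus strand: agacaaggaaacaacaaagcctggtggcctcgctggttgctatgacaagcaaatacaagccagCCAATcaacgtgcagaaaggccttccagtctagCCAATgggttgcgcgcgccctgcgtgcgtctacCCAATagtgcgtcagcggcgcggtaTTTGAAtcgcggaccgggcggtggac
Ttk, chr9:83834539-83834718, plus strand: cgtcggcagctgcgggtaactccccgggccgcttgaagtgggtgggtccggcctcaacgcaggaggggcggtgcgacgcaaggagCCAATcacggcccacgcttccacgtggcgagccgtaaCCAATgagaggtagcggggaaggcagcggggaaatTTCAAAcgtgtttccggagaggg
Spc25, chr2:69206184-69206363, minus strand: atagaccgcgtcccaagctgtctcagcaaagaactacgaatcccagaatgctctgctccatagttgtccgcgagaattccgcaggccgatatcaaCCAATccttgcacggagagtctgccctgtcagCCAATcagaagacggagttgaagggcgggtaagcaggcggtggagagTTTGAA
Mki67, chr7:135716350-135716529, minus strand: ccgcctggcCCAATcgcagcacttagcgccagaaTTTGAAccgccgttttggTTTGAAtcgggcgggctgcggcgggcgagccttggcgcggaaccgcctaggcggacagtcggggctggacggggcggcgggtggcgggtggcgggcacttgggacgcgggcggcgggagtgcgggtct
Ccnb1, chr13:100786457-100786636, minus strand: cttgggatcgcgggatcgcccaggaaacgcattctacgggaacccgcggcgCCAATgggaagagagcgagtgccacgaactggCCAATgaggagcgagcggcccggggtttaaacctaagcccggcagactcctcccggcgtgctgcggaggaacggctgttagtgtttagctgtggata
Birc5, chr11:117849087-117849266, plus strand: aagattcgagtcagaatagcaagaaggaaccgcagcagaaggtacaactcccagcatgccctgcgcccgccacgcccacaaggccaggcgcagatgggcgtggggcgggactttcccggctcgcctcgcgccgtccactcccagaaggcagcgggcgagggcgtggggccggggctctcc

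In Ccnb2 the CCAAT boxes begin at -87, -54 and -21 from the start, and a CHR begins at -167, outside the window shown, and at 5. Cdk1 carries CHR at -71 and -15 and inverted CCAAT at -208, also outside it, -80 and -48, and Spc25 carries CCAAT at -55 and -23 with a CHR at 25. Across the 29 promoters, 21 genes had a CHR that begins within 50 bases of the start, and 7 of 25 neighbouring CCAAT pairs began 30 to 35 bases apart, in 6 genes. The RefSeq start of Kif2c, whose window held 1 inverted CHR (chr4:117178743-117178922, minus strand), lies inside the gene's GENCODE span (chr4:117159639-117182639). The RefSeq start of Cdca8 (window chr4:124936888-124937067, minus strand) likewise lies inside its GENCODE span (chr4:124918465-124939311). In the Cdca8 window a CHR and an inverted CCAAT share 1 base. At 12 h the median log2 difference, thapsigargin minus DMSO, was -1.33 for the 23 genes with CHR and -1.26 for the 6 without (Birc5, Ccnb1, Cenpe, Mad2l1, Nuf2 and Nusap1). At 6 h the medians were -0.55 with CHR and -0.96 without. A match is a string of letters and was not tested as a site.

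Libraries held 17305962 to 40964140 counts in genes. Levels are given as counts per megaread (CPM) on library sizes scaled by TMM (trimmed mean of M values). A library has its own balance of long and short transcripts, measured as the median log2 level of protein-coding genes of at least 4809 bases minus that of genes of up to 2175 bases, each gene relative to its mean over libraries. This balance was 0.73 to 1.29 in the libraries at 2 h and 0.47 to 0.68 at 12 h. It was -0.02, -1.35 and -1.07 in thapsigargin libraries at 6 h, -0.999, -0.72 and -1.52 in DMSO libraries at 6 h, and -1.79, -0.16 and -0.93 in recovery libraries. Mitochondrial genes took 14.9% of counts in recovery replicate 1 and 15.8% in DMSO replicate 3 at 2 h, against 1.41% to 3.07% elsewhere. These 2 libraries, with thapsigargin replicate 1 and DMSO replicate 3 at 6 h, are called the 4 libraries that stand apart. They were picked for their balance and mitochondrial share after the data were seen, and results are given with and without them. Without them, the 6 h libraries left had balances of -1.35 and -1.07 under thapsigargin and -0.999 and -0.72 under DMSO, so that in every 6 h comparison without them drug and balance cannot be told apart. The myoblast label was checked against 7 marker genes, which had counts in every group but changed. Myod1, a factor of muscle determination, stood at 73.4 to 94.9 CPM in thapsigargin cells and 88.6 to 112 CPM in DMSO cells at 6 h, and at 5.03 ± 0.922 CPM in thapsigargin cells and 14.4 ± 0.822 CPM in DMSO cells at 12 h (SD, n = 2 each). Of the 7, 2 were lower and 1 higher under thapsigargin at 6 h and again at 12 h, while Msc stood at 0.509 and 0.612 CPM in thapsigargin cells at 12 h. In DMSO cells 4 were lower and 1 higher at 12 h than at 6 h, with a median of -1.54. Of 7 stress-response genes taken as a check of treatment, all 7 were higher under thapsigargin at each time.

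**Figure D1:**
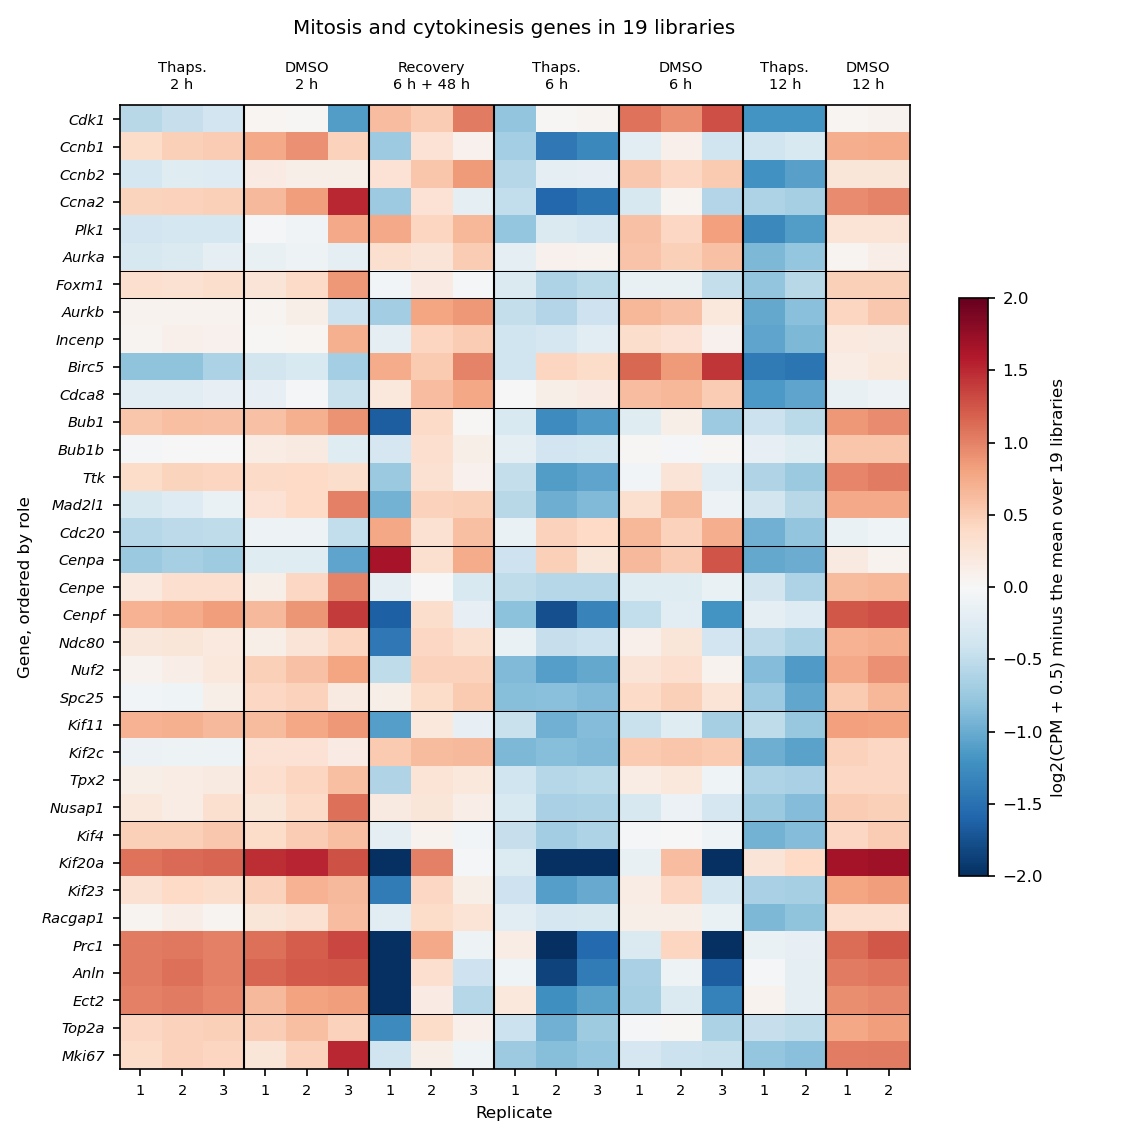
Level of each of the 35 genes (down the page, ordered by role) in each of the 19 libraries (across), as log2(CPM + 0.5) minus the gene's mean over the 19 libraries. Thapsigargin libraries at 12 h and at 6 h are below the DMSO libraries beside them for most genes, and the 6 h and recovery columns differ between replicates for Kif20a, Prc1 and Anln.

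At 2 h of thapsigargin none of the 35 genes passed the test, at 6 h 15 were lower, and at 12 h 28 were lower. None was higher at any time. The test was edgeR's quasi-likelihood test with Benjamini-Hochberg adjustment over all 18039 genes, and a gene is called at an adjusted p under 0.05. Here fell and rose describe a difference from the group compared, such as DMSO cells of the same time, and not a change over time. In bulk RNA, fewer cells in mitosis and less of these RNAs per cell cannot be told apart. Summed over the 35 genes, the level was 3058 and 2999 CPM in thapsigargin cells at 12 h, against 7345 and 7505 CPM in DMSO cells. At 6 h the sum was 3597, 3196 and 3328 CPM in thapsigargin cells, against 5308, 5475 and 4836 CPM in DMSO cells. At 2 h it was 5607, 5814 and 5821 CPM in thapsigargin cells, against 6145, 6620 and 7569 CPM in DMSO cells. The sums of the drug and vehicle libraries did not overlap at any of these times on this scaling. At 12 h the sums were higher than at 6 h in DMSO cells and lower than at 6 h in thapsigargin cells. At 6 h they were lower than at 2 h in both. Single genes differed from the sums. The mean of Birc5 was 68.6 CPM at 2 h and 130 CPM at 6 h in thapsigargin cells, against 84.8 and 258 CPM in DMSO cells. As a share of all gene counts, with no TMM scaling, the 35 genes were apart at 12 h (0.339% and 0.347% in thapsigargin cells, against 0.830% and 0.843% in DMSO cells). By that share they overlapped at 6 h (0.291% to 0.402%, against 0.373% to 0.555%) and at 2 h (0.643% to 0.673%, against 0.642% to 0.676%).

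At 2 h, 31 of the 35 log2 differences were below 0, with a median of -0.25 against -0.04 over all tested genes. None was called, where 4.52% of all genes were called in either direction. By unadjusted p, 6 of the 35 were under 0.05, as were 3053 of all 18039 genes. DESeq2 called 3 of the 35 and 9.36% of all genes, so both counts are near the shares of all genes. The lowest adjusted p of the 35 in the edgeR test was 0.121, for Plk1. The libraries of the groups did not overlap for 14 genes with thapsigargin lower, where 19.2% of all genes had this pattern, and for Ect2 with thapsigargin higher, where 19.3% did. When the 4 libraries that stand apart were left out, 9 genes were called lower (Ccnb1, Ccnb2, Cdk1, Cdc20, Cenpa, Kif2c, Mad2l1, Nuf2 and Spc25), with log2 differences of -0.52 to -0.32. The median over the 35 was then -0.08, and 2240 of 17536 genes were called lower. At 2 h this removes DMSO replicate 3, the lowest DMSO library for Ccnb1, Cdk1, Cdc20, Cenpa, Kif2c and Spc25 and the highest for Mad2l1 and Nuf2. Where it was the lowest, a wider gap was fixed by the choice, and nothing is read from the larger count.

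At 6 h, 34 of the 35 differences were below 0, and the median was -0.59 against 0.01 over all tested genes. The 15 called lower compare with 8.79% of all genes called lower. Those 15 were Cdk1, Ccnb1, Ccnb2, Plk1, Aurka, Aurkb, Birc5, Cdca8, Ttk, Mad2l1, Nuf2, Spc25, Kif2c, Tpx2 and Kif4. For 22 genes every thapsigargin library was below every DMSO library, where 16.4% of all genes had this pattern. Leaving out thapsigargin replicate 2 or replicate 3 brought the count to 9, and scaling by total counts in place of TMM to 6. Of all genes, 1196 of 17934, 1142 of 17876 and 832 of 18039 were called lower in these fits, in the order given. The count of the 35 was 33 without the 4 libraries that stand apart, all but Cdc20 and Cenpa, when 4502 of 17536 genes were called lower. For many of the genes, such as Anln and Top2a, this removes the highest thapsigargin and the lowest DMSO library. A wider gap was then fixed by the choice, and nothing is read from the larger count.

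At 12 h all 35 differences were below 0, from -1.84 for Nuf2 to -0.76 for Bub1b, with a median of -1.30 against 0.01 over all tested genes. The 28 called lower compare with 6.77% of all genes called lower. The 7 genes not called were Bub1, Cenpa, Cenpf, Kif20a, Prc1, Anln and Ect2. All 35 genes had both thapsigargin libraries below both DMSO libraries, where 35.8% of all genes had this pattern with 2 libraries against 2. All 15 genes called at 6 h were also called at 12 h, where they made up 15 of the 28. Leaving out 1 of the 4 libraries leaves a lone library in its group, assumed to vary like the other groups. Fewer of the 35 and fewer of all genes were then called. Scaling by total counts left 12, when 750 of 18039 genes were called lower. The 11 genes whose call ended whichever of the 4 libraries was left out were Ccnb1, Ccna2, Cdk1, Aurkb, Bub1b, Mad2l1, Cdc20, Ndc80, Tpx2, Kif23 and Top2a, whose log2 differences then stayed between -1.65 and -0.69. Cdca8, Cenpe, Incenp and Kif11 lost the call without 1 of the 4.

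**Figure D2:**
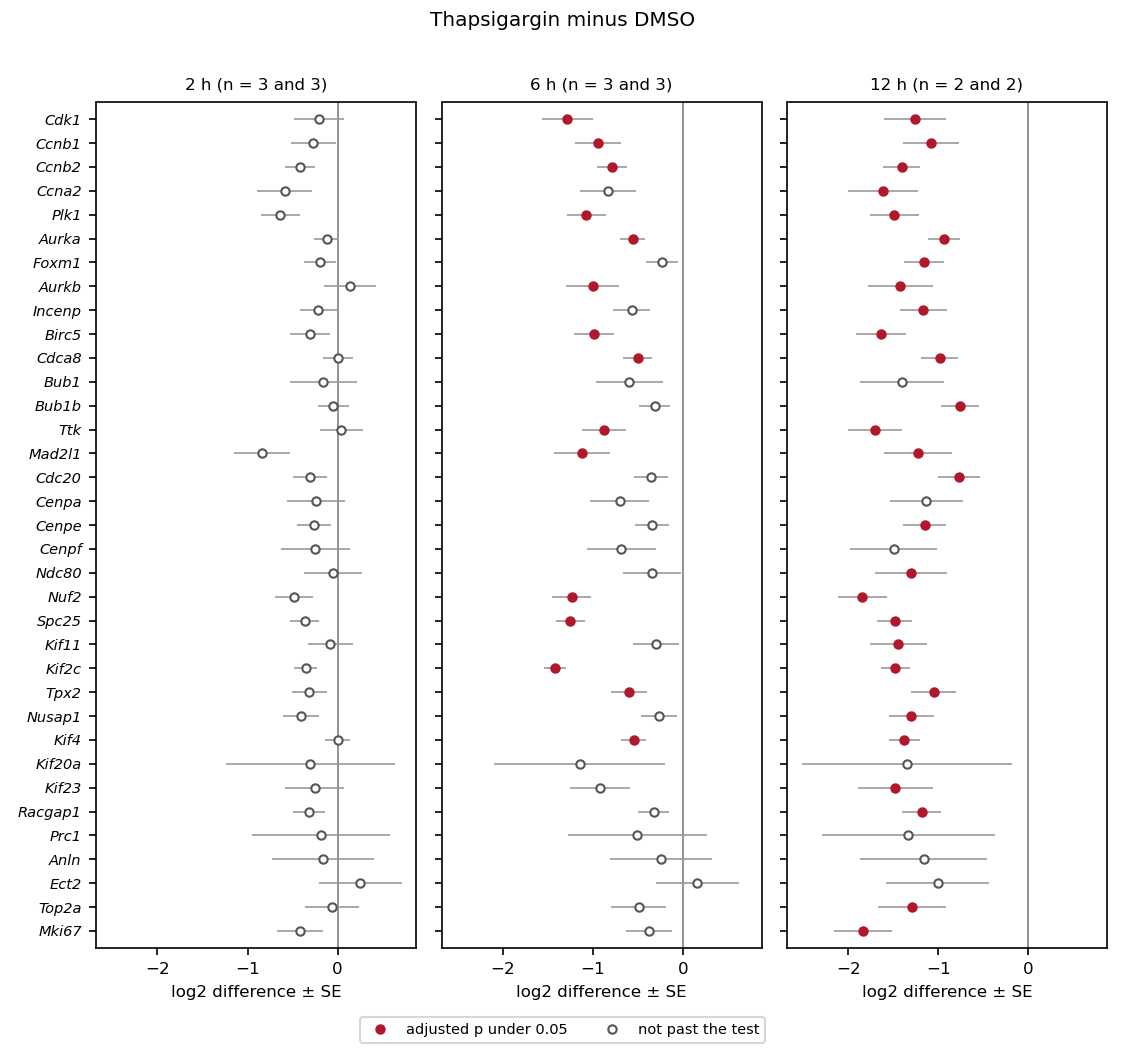
Log2 difference, thapsigargin minus DMSO, for each of the 35 genes (down the page, ordered by role) at 2 h, 6 h and 12 h, with the standard error of the fit as bars; filled points passed the test. At 2 h none is filled and 31 lie left of 0, the farthest at -0.84 (Mad2l1), while 15 are filled at 6 h and 28 at 12 h, all left of 0.

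Of the 6 genes of mitotic entry, 5 were lower at 6 h and all 6 at 12 h. Cdk1 (ENSMUSG00000019942.13, chr10:69335146-69352938), the kinase that starts mitosis, stood at 116, 203 and 208 CPM in thapsigargin cells at 6 h, against 423, 375 and 486 CPM in DMSO cells. No library of one group reached the other. At 12 h it stood at 86.8 and 86.6 CPM in thapsigargin cells, against 205 and 209 CPM in DMSO cells. It fell by 1.29 ± 0.28 at 6 h (log2, SE; adjusted p = 0.00356) and by 1.26 ± 0.35 at 12 h (adjusted p = 0.0232), and the 12 h call was lost without any 1 of its 4 libraries (adjusted p 0.105 to 0.148). Ccnb1 (ENSMUSG00000041431.16, chr13:100778650-100786570), cyclin B1, which activates CDK1, stood at 89.6, 53.3 and 58.3 CPM in thapsigargin cells at 6 h, against 124, 154 and 109 CPM in DMSO cells. After 12 h it stood at 109 and 117 CPM in thapsigargin cells, against 238 and 240 CPM in DMSO cells. Groups did not overlap at either time, and the falls were 0.94 ± 0.25 (adjusted p = 0.0125) and 1.08 ± 0.31 (adjusted p = 0.0284), with the 12 h call again lost without any 1 library (adjusted p 0.134 to 0.196) and the 6 h call in 2 of 6 such fits (up to 0.0605). A pseudogene, Ccnb1-ps, could share its reads.

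Ccnb2 (ENSMUSG00000032218.7, chr9:70407692-70421547), cyclin B2, partners CDK1 as cyclin B1 does. In thapsigargin cells it was at 47.1, 61.6 and 62.5 CPM at 6 h, against 102, 93.3 and 101 CPM in DMSO cells. After 12 h it was at 29.96 and 32.6 CPM in thapsigargin cells, against 82.8 and 82.7 CPM in DMSO cells. Both pairs of groups were fully apart, and Ccnb2 fell by 0.79 ± 0.17 at 6 h (adjusted p = 0.00244) and by 1.40 ± 0.21 at 12 h (adjusted p = 0.000213). Plk1 (ENSMUSG00000030867.7, chr7:122159439-122169873), a kinase of mitotic entry and spindle assembly, was at 55.8, 78.5 and 75.9 CPM in thapsigargin cells at 6 h, against 144, 128 and 170 CPM in DMSO cells. At 12 h it was at 38.8 and 43.9 CPM in thapsigargin cells, against 116 and 115 CPM in DMSO cells. The groups did not overlap, and the fold difference was 2.10 at 6 h (adjusted p = 0.00216) and 2.80 at 12 h (adjusted p = 0.00139), lower in both. Aurka, the kinase of spindle poles, fell by 0.56 ± 0.14 at 6 h (adjusted p = 0.00882) and by 0.94 ± 0.17 at 12 h (adjusted p = 0.00153). Ccna2, cyclin A2, had a log2 difference of -0.83 ± 0.31 at 6 h (adjusted p = 0.0689) and fell by 1.61 ± 0.39 at 12 h (adjusted p = 0.0102).

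**Figure D3:**
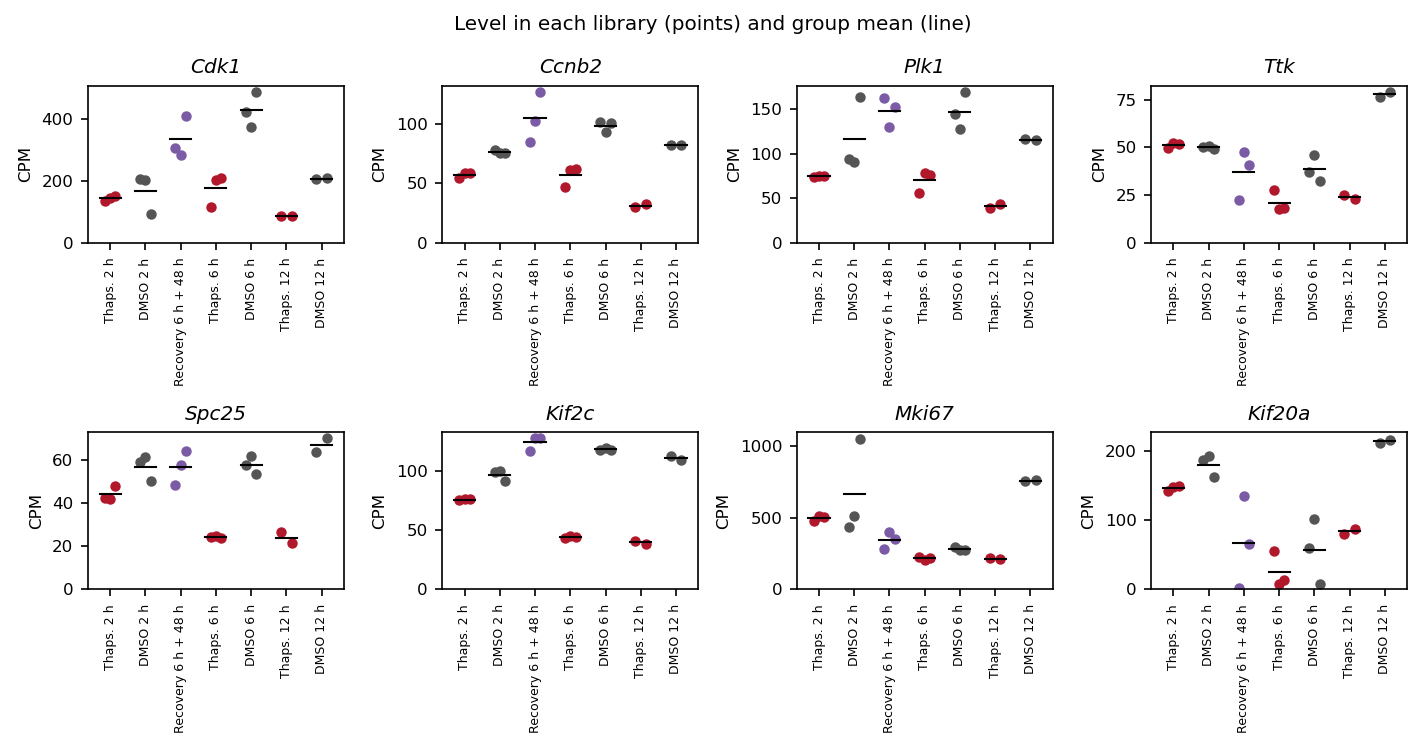
CPM in every library for Cdk1, Ccnb2, Plk1, Ttk, Spc25, Kif2c, Mki67 and Kif20a, by group, with group means as lines. The thapsigargin points at 12 h lie below the DMSO points in every panel, Kif2c and Spc25 points are tightly grouped at 6 h, and those of Kif20a spread from 7.57 to 102 CPM at 6 h.

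Foxm1 (ENSMUSG00000001517.14, chr6:128362967-128376146), the transcription factor that activates many of these genes, passed the test at 12 h. Its level was 74.0 and 87.2 CPM in thapsigargin cells at 12 h, against 180 and 179 CPM in DMSO cells, with no overlap. At 6 h it was 105, 83.5 and 87.9 CPM in thapsigargin cells, against 117, 116 and 92.6 CPM in DMSO cells, and the groups overlapped. At 2 h it was 163, 159 and 165 CPM in thapsigargin cells, against 155, 169 and 235 CPM in DMSO cells, again with overlap. Foxm1 fell by 1.16 ± 0.22 at 12 h (2.23-fold, adjusted p = 0.00199). Its difference was -0.23 ± 0.18 at 6 h (adjusted p = 0.415), and the test of 12 h against 6 h gave -0.92 ± 0.28 (adjusted p = 0.228). Leaving out the 4 libraries that stand apart removes the highest thapsigargin and the lowest DMSO library of Foxm1 at 6 h. A larger fall was thus fixed by the choice, and nothing is read from the difference of -0.44 ± 0.10 it gave. The exons of Foxm1 overlap a neighbour over 4.19% of their bases.

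The chromosomal passenger complex corrects attachments of chromosomes to the spindle and later guides cytokinesis. Of its 4 genes, 3 were lower at 6 h and all 4 at 12 h. Birc5 (ENSMUSG00000017716.15, chr11:117849251-117855743), survivin, stood at 87.5, 154 and 149 CPM in thapsigargin cells at 6 h, against 257, 208 and 310 CPM in DMSO cells. In the 12 h groups it stood at 42.7 and 41.4 CPM in thapsigargin cells, against 128 and 133 CPM in DMSO cells. The groups were apart at both times, and Birc5 fell by 0.99 ± 0.22 at 6 h (adjusted p = 0.00398) and by 1.63 ± 0.28 at 12 h (3.10-fold, adjusted p = 0.000712). Its calls at 6 h and 12 h held under every alternative run. Aurkb, the kinase of the complex, fell by 1.003 ± 0.29 at 6 h (adjusted p = 0.0213) and by 1.42 ± 0.36 at 12 h (adjusted p = 0.0152). Cdca8, borealin, fell by 0.50 ± 0.16 at 6 h (adjusted p = 0.0384) and by 0.98 ± 0.20 at 12 h (adjusted p = 0.00365). Incenp, the scaffold, had a difference of -0.57 ± 0.21 at 6 h (adjusted p = 0.0625) and fell by 1.16 ± 0.26 at 12 h (adjusted p = 0.00585). At 6 h the call was lost in 5 of 6 fits that left out 1 library for Aurkb (adjusted p 0.0226 to 0.0753) and in all 6 for Cdca8 (0.0566 to 0.103).

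Of the 5 genes of the spindle checkpoint and its target, 2 were lower at 6 h and 4 at 12 h. Ttk (ENSMUSG00000038379.15, chr9:83834689-83872389), the MPS1 kinase that starts checkpoint signalling at kinetochores, stood at 27.5, 17.5 and 18.2 CPM in thapsigargin cells at 6 h, against 37.1, 46.1 and 32.6 CPM in DMSO cells. At 12 h it stood at 25.1 and 22.7 CPM in thapsigargin cells, against 76.5 and 79.1 CPM in DMSO cells. No libraries overlapped, and the fold was 1.83 at 6 h (adjusted p = 0.0152) and 3.25 at 12 h (adjusted p = 0.00107), lower in both. The 6 h call of Ttk was lost in 3 of 6 fits that left out 1 library (adjusted p 0.00585 to 0.0702). Mad2l1, MAD2, which holds back CDC20 until chromosomes are attached, fell by 1.12 ± 0.31 at 6 h (adjusted p = 0.0155, but up to 0.0621 without 1 library) and by 1.23 ± 0.38 at 12 h (adjusted p = 0.0437). Bub1b, the checkpoint protein BUBR1, and Cdc20, the activator of the anaphase-promoting complex, had differences of -0.32 and -0.35 at 6 h, not called, and each fell by 0.76 at 12 h (adjusted p = 0.0262 and 0.0400). Bub1, a checkpoint kinase, had -0.59 at 6 h and -1.40 ± 0.47 at 12 h, where its adjusted p was 0.0605.

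At the centromere and kinetochore, 2 of 6 genes were lower at 6 h and 4 at 12 h. Spc25 (ENSMUSG00000005233.16, chr2:69193895-69206194), is a subunit of the NDC80 complex that ties kinetochores to microtubules. It stood at 24.4, 24.5 and 23.8 CPM in thapsigargin cells at 6 h, against 57.7, 62.0 and 53.5 CPM in DMSO cells. After 12 h it stood at 26.5 and 21.4 CPM in thapsigargin cells, against 63.6 and 70.3 CPM in DMSO cells. At 2 h it stood at 42.5, 41.9 and 48.2 CPM in thapsigargin cells, against 59.0, 61.5 and 50.2 CPM in DMSO cells. The groups did not overlap at any time. Spc25 fell by 1.25 ± 0.16 at 6 h (adjusted p = 4.27e-05) and by 1.48 ± 0.20 at 12 h (adjusted p = 9.4e-05), and its difference was -0.37 ± 0.16 at 2 h (adjusted p = 0.241). Nuf2, of the same complex, fell by 1.23 ± 0.22 at 6 h (adjusted p = 0.000714) and by 1.84 ± 0.27 at 12 h (3.58-fold, adjusted p = 0.000241). Ndc80, the subunit that binds microtubules, had -0.34 at 6 h and fell by 1.30 ± 0.40 at 12 h (adjusted p = 0.0432). Cenpe, a kinetochore motor, had -0.34 at 6 h and fell by 1.15 ± 0.24 at 12 h (adjusted p = 0.00372). Cenpa, the histone H3 variant of centromeres, and Cenpf, a large kinetochore protein, were not called at 12 h, with -1.13 ± 0.40 (adjusted p = 0.0811) and -1.50 ± 0.48 (adjusted p = 0.0504).

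Of 4 spindle motors and assembly factors, 2 were lower at 6 h and all 4 at 12 h. Kif2c (ENSMUSG00000028678.13, chr4:117159639-117182639), a kinesin that takes microtubules apart at kinetochores, had the lowest p of the 35 genes at both times. It stood at 43.6, 44.8 and 44.0 CPM in thapsigargin cells at 6 h, against 118, 120 and 117 CPM in DMSO cells. In the 12 h groups it stood at 41.0 and 38.5 CPM in thapsigargin cells, against 112 and 109 CPM in DMSO cells. At 2 h it stood at 75.1, 75.9 and 75.8 CPM in thapsigargin cells, against 99.2, 99.5 and 91.5 CPM in DMSO cells. The groups were apart at each time, with differences of -0.36 ± 0.13 at 2 h (adjusted p = 0.132), -1.42 ± 0.13 at 6 h (2.68-fold, adjusted p = 1.29e-06) and -1.47 ± 0.16 at 12 h (2.78-fold, adjusted p = 1e-05). Tpx2, a microtubule nucleation factor that activates Aurora A, fell by 0.60 ± 0.20 at 6 h (adjusted p = 0.0413) and by 1.05 ± 0.25 at 12 h (adjusted p = 0.00855). Its 6 h call was lost in 5 of 6 fits without 1 library (adjusted p 0.0421 to 0.114). Kif11, the kinesin that pushes spindle poles apart, and Nusap1, which bundles spindle microtubules, had -0.30 and -0.26 at 6 h and fell by 1.44 ± 0.32 (adjusted p = 0.00547) and 1.30 ± 0.25 (adjusted p = 0.0019) at 12 h.

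The central spindle and cytokinesis genes had 1 of 7 lower at 6 h and 3 of 7 at 12 h. Kif4 (ENSMUSG00000034311.3, chrX:100625737-100727214), a chromosome-bound kinesin that sets the length of the central spindle, stood at 55.5, 47.1 and 49.7 CPM in thapsigargin cells at 6 h, against 74.1, 76.0 and 72.3 CPM in DMSO cells. At 12 h it stood at 39.5 and 41.7 CPM in thapsigargin cells, against 102 and 109 CPM in DMSO cells. The groups did not overlap, and Kif4 fell by 0.55 ± 0.14 at 6 h (1.46-fold, adjusted p = 0.00893) and by 1.38 ± 0.17 at 12 h (2.60-fold, adjusted p = 4.99e-05). Its exons share 15.1% of their bases with a neighbour, Pdzd11, and Kif4-ps could share reads. Racgap1 and Kif23, the partners that form centralspindlin, had -0.33 and -0.92 at 6 h, not called, and fell by 1.18 ± 0.22 (adjusted p = 0.00145) and 1.48 ± 0.41 (adjusted p = 0.0255) at 12 h. Kif20a, Prc1, Anln and Ect2 were not called at either time.

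Kif20a, a kinesin that brings the passenger complex to the central spindle, varied more between replicates than between drug and vehicle. At 6 h it was at 55.3, 7.57 and 14.0 CPM in thapsigargin cells, against 60.0, 102 and 8.11 CPM in DMSO cells. In recovery cells it was at 2.26, 135 and 65.5 CPM, a 59.9-fold span within 1 group. Prc1, which bundles the antiparallel microtubules of the central spindle, was at 81.9, 12.2 and 24.6 CPM in thapsigargin cells at 6 h, against 60.0, 98.7 and 10.1 CPM in DMSO cells. Anln, anillin of the cleavage furrow, was at 215, 62.7 and 86.2 CPM in thapsigargin cells at 6 h, against 146, 213 and 72.3 CPM in DMSO cells. Ect2, the exchange factor that activates RhoA at the furrow, was at 114, 41.9 and 46.9 CPM in thapsigargin cells at 6 h, against 62.4, 81.0 and 38.4 CPM in DMSO cells. In these 4 genes thapsigargin replicate 1 was the highest of its group and DMSO replicate 3 the lowest of its group, and these libraries are at the ends of the long-to-short balance of the 6 h groups. At 12 h the same genes had tight groups, and Kif20a stood at 79.9 and 87.9 CPM in thapsigargin cells, against 212 and 216 CPM in DMSO cells. Its difference there was -1.35 ± 1.17 (adjusted p = 0.579) in the fit that shares 1 spread over all groups. Leaving out the 4 libraries that stand apart removes those highest and lowest libraries, so a larger fall at 6 h was fixed by the choice, and nothing is read from it. The 6 h differences were then -2.90 ± 0.32 for Kif20a, -2.11 ± 0.30 for Prc1, -1.27 ± 0.21 for Anln and -0.70 ± 0.18 for Ect2. The difference of Ect2 with all libraries was 0.16 ± 0.46, above 0 as for no other of the 35.

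Kif20a and Prc1 are also the genes of the 35 whose last 500 exon bases all overlap a gene on the opposite strand. Exons of Cdc23 cover 29.3% of Kif20a's exon bases, and those of Rccd1 cover 11.1% of Prc1's. The strand setting of the counting is not given in the sources used here. Cdc23 varied likewise, from 13.5 to 61.9 CPM in thapsigargin cells at 6 h and from 11.0 to 62.8 CPM in DMSO cells, and from 7.17 to 74.97 CPM in recovery cells. Rccd1 did not vary in this way, at 10.3 to 11.1 CPM in thapsigargin cells at 6 h, 13.7 to 15.3 CPM in DMSO cells and 13.2 to 16.5 CPM in recovery cells. What part the overlaps have in the spread was not tested. Among the other genes, Kif4 shares the 15.1% given above, Ccna2 12.5% of its exon bases with Exosc9 and Plk1 7.09% with a clone gene.

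Both mitotic chromatin genes were lower at 12 h and neither was called at 6 h. Mki67 (ENSMUSG00000031004.8, chr7:135689784-135716361), the Ki-67 protein that coats mitotic chromosomes and marks cycling cells, stood at 217 and 208 CPM in thapsigargin cells at 12 h, against 754 and 761 CPM in DMSO cells. At 6 h it stood at 224, 206 and 218 CPM in thapsigargin cells, against 292, 276 and 271 CPM in DMSO cells. The groups did not overlap at 6 h or at 12 h. Mki67 fell by 1.83 ± 0.32 at 12 h (3.57-fold, adjusted p = 0.00101), and its 6 h difference was -0.38 ± 0.26 (adjusted p = 0.341). In DMSO cells at 2 h replicate 3 stood at 1050 CPM, against 437 and 508 CPM in the other libraries of that group. Top2a (ENSMUSG00000020914.17, chr11:98992943-99024189), topoisomerase II, which untangles sister chromatids, stood at 346 and 336 CPM in thapsigargin cells at 12 h, against 816 and 848 CPM in DMSO cells. At 6 h it stood at 355, 244 and 291 CPM in thapsigargin cells, against 462, 483 and 307 CPM in DMSO cells. The groups were apart at 12 h and overlapped at 6 h. Top2a fell by 1.29 ± 0.38 at 12 h (2.44-fold, adjusted p = 0.0328), a call lost without any 1 of the 4 libraries (adjusted p 0.134 to 0.198).

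The change of the response with time was tested as the drug effect at one time minus that at another. From 2 h to 6 h, 33 of 35 differences of response were below 0, and 2 genes were called, where 1.87% of all genes were called lower. Kif2c gave -1.06 ± 0.18 (adjusted p = 0.0026) and Spc25 -0.89 ± 0.22 (adjusted p = 0.0352). Scaling by total counts or dropping the low-count filter ended both calls, and Spc25 lost its call in 10 of 12 fits that left out 1 library (adjusted p 0.0444 to 0.107). Neither was called under every alternative. Leaving out the 4 libraries that stand apart gave 29 calls, when 5901 of 17536 genes were called, against 719 of 18039 with all libraries. For many of the genes the choice widened the 6 h gap in this contrast, so nothing is read from the larger count. DESeq2 called 6 with all libraries, when it called 1566 of 18039. From 6 h to 12 h, 34 of 35 were below 0, with a median of -0.61 against -0.04 over all genes, and no gene was called by edgeR, where 0.571% of all genes were called. At an unadjusted p under 0.05 there were 9 of the 35 and 1435 of all 18039 genes. DESeq2 called 4 of the 35 and 425 of 18039. Mki67 had -1.46 ± 0.41 (adjusted p = 0.151) and Kif2c -0.05, and neither passed the test. When the 4 libraries were left out, 17 of the 35 were called lower and 1 higher, and of all 17536 genes 1406 lower and 1365 higher. The choice changed the 6 h differences in this contrast as well, and nothing is read from these counts.

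After removal of the drug, 15 of the 35 genes were higher in recovery cells than in thapsigargin cells at 6 h, and none differed from DMSO cells at 6 h beyond the test. Both comparisons use libraries of the 6 h comparison above, so each gene's values are set side by side. Against thapsigargin at 6 h, 34 of the 35 differences were above 0, with a median of 0.67 against 0.04 over all genes, and 11.6% of all genes were called higher. The 15 were Cdk1, Ccnb1, Ccnb2, Ccna2, Plk1, Foxm1, Aurkb, Incenp, Ttk, Mad2l1, Nuf2, Spc25, Kif2c, Nusap1 and Kif4. For 15 genes every recovery library was above every thapsigargin library, where 12.0% of all genes had this pattern. The count was 27 without recovery replicate 1, 9 without thapsigargin replicate 2, and 8 without thapsigargin replicate 3 or recovery replicate 3. Of all genes, 2495 of 17888, 1613 of 17934, 1452 of 17876 and 1988 of 17972 were called higher in these fits, in the order given. DESeq2 called 24, scaling by total counts gave 4, and a fit of these groups alone gave 3. It was 33 without the 4 libraries that stand apart, all but Cdc20 and Cenpa, when 5121 of 17536 genes were called higher. For many of the genes, such as Anln and Top2a, this removes the lowest recovery and the highest thapsigargin library. A wider gap was then fixed by the choice, and nothing is read from the larger count. Calls of Aurkb, Ccna2, Cdk1, Foxm1, Incenp, Mad2l1, Nusap1 and Ttk each failed in 2 to 5 of the 6 fits that left out 1 library (adjusted p up to 0.14).

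Kif2c stood at 117, 127 and 128 CPM in recovery cells, against 43.6, 44.8 and 44.0 CPM in thapsigargin cells at 6 h. No libraries overlapped, and it rose by 1.49 ± 0.13 (adjusted p = 7.88e-07). Against the 118, 120 and 117 CPM of DMSO cells at 6 h its difference was 0.07 ± 0.13. Spc25 stood at 48.2, 57.5 and 64.0 CPM in recovery cells and rose by 1.22 ± 0.16 against thapsigargin cells (adjusted p = 4.39e-05), with -0.03 ± 0.16 against DMSO cells. Plk1 stood at 163, 130 and 152 CPM in recovery cells and rose by 1.08 ± 0.22 (adjusted p = 0.00184), with 0.01 ± 0.22 against DMSO cells. These 3 kept their calls against thapsigargin under every alternative run. Cdk1 stood at 308, 284 and 409 CPM in recovery cells, above all thapsigargin libraries and overlapping the DMSO libraries of 375 to 486 CPM, with 0.93 ± 0.28 against thapsigargin (adjusted p = 0.0228) and -0.36 ± 0.28 against DMSO (adjusted p = 0.758). Ccnb2 stood at 85.3, 103 and 127 CPM in recovery cells and rose by 0.88 ± 0.17 (adjusted p = 0.000988), with 0.09 ± 0.16 against DMSO cells.

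Foxm1 stood at 124, 145 and 126 CPM in recovery cells, above the thapsigargin and the DMSO libraries at 6 h, and rose by 0.51 ± 0.18 against thapsigargin cells (adjusted p = 0.0454). Its difference from DMSO cells was 0.28 ± 0.18 (adjusted p = 0.676). Kif4, at 66.6, 80.2 and 73.6 CPM in recovery cells, rose by 0.53 ± 0.14 against thapsigargin cells (adjusted p = 0.00935). Several genes had recovery replicate 1 far below the other recovery libraries. Ttk was at 22.6, 47.4 and 40.6 CPM in recovery cells, Ccnb1 at 86.8, 175 and 153 CPM, and Top2a at 197, 612 and 512 CPM. Cenpa went the other way, at 439 CPM in replicate 1 and 173 and 233 CPM in the others. Birc5, at 192, 165 and 230 CPM in recovery cells, had 0.59 ± 0.22 against thapsigargin cells (adjusted p = 0.0609) and -0.40 ± 0.22 against DMSO cells (adjusted p = 0.599).

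Between recovery cells and DMSO cells at 6 h, differences ran from -0.40 for Birc5 to 0.45 ± 0.20 for Nusap1 (adjusted p = 0.479, the lowest of the 35). The median was 0.06, as it was over all genes, and 0.327% of all genes were called. By unadjusted p, 1 of the 35 was under 0.05, as were 1766 of all 18039 genes. DESeq2 called 0 of the 35 and 422 of 18039. Foxm1 and Nusap1 had every recovery library above every DMSO library, where 4.71% of all genes had this pattern. Standard errors ran from 0.13 for Kif2c to 0.94 for Kif20a, so the precision differed widely between genes. When the 4 libraries that stand apart were left out, Mki67 (0.38 ± 0.10, adjusted p = 0.0352) and Nusap1 (0.39 ± 0.11, adjusted p = 0.0424) were higher in recovery cells, when 6.02% of all genes were called.

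**Figure D4:**
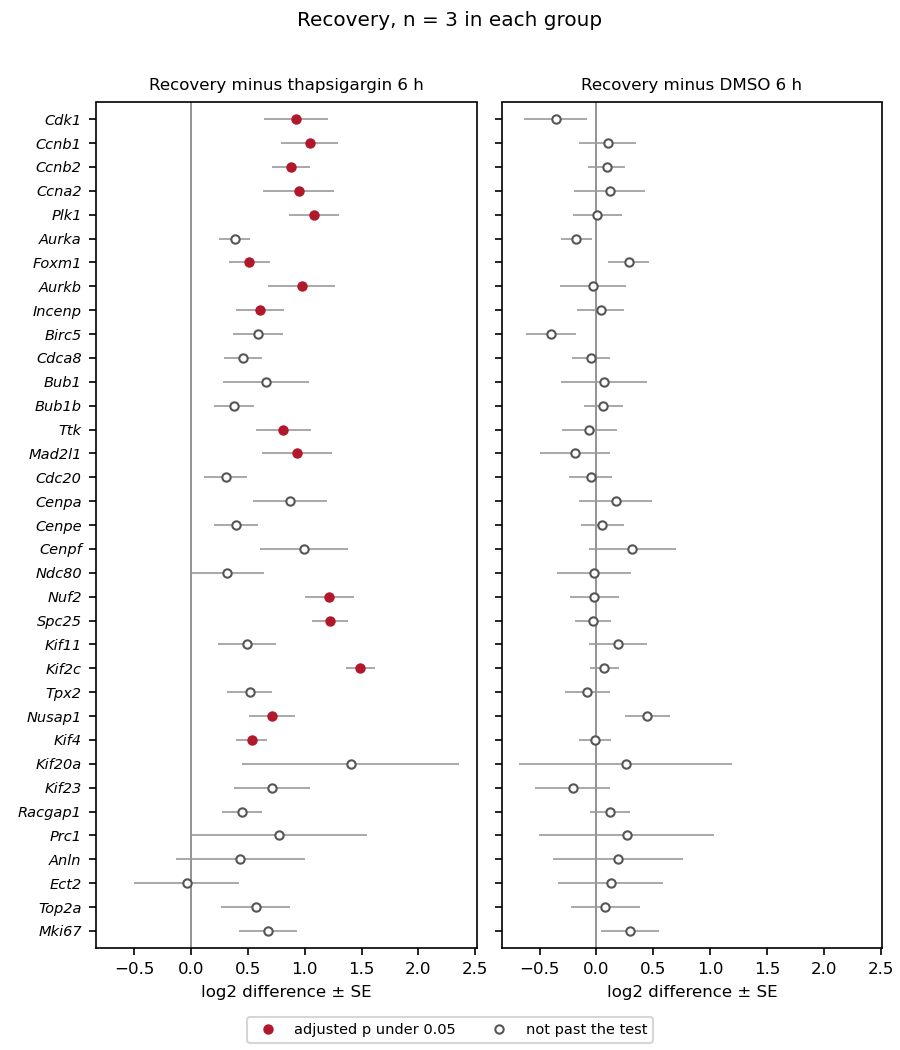
Log2 difference of recovery cells minus thapsigargin cells at 6 h, and of recovery cells minus DMSO cells at 6 h, for the 35 genes ordered by role, with standard errors as bars and filled points where the test was passed. Against thapsigargin 15 points are filled, all right of 0, and against DMSO none is filled.

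Many of the 35 genes also differed between vehicle groups, only loosely ordered by transcript length. Comparing DMSO at 6 h with DMSO at 2 h, 6 genes were higher and 12 lower, where 24.6% of all genes were called higher and 25.0% lower. Together 18 of 35 were called, a share near the 49.6% of all genes. Comparing DMSO at 12 h with DMSO at 6 h, 15 were higher and 5 lower, where 18.7% of all genes were called higher, 16.8% lower and 35.4% in either direction. None of these 20 calls held under every alternative, and of the 18 calls at 6 h against 2 h, 5 did (Birc5, Ccna2, Cdk1, Cenpa and Foxm1). Without either DMSO library at 12 h, which leaves 1 in that group, fewer of the 35 and of all genes were called at 12 h against 6 h. In that comparison the count was 7 without DMSO replicate 3 at 6 h, 12 without replicate 1, 9 with total-count scaling and 8 with offsets for length and GC content. Of all genes, 16.9%, 25.2%, 25.3% and 22.9% were called in these fits, in the order given. There Anln lost its call in 4 of 5 fits that left out 1 library, Cdk1 in 3 and Birc5 in 2, and Cenpf and Mki67 in 0. Cdk1 was higher at 6 h than at 2 h (1.36 ± 0.28) and lower at 12 h than at 6 h (-1.05 ± 0.32), and Birc5 did the same (1.61 ± 0.22 and -0.99 ± 0.25). Cenpf was lower at 6 h than at 2 h (-1.60 ± 0.39) and higher at 12 h than at 6 h (1.85 ± 0.42), as were Anln (-1.88 ± 0.59 and 1.72 ± 0.63) and Mki67 (-1.25 ± 0.26 and 1.44 ± 0.28), though with offsets for length and GC content the 6 h against 2 h difference of Mki67 was 0.14. Spc25 (0.02 and 0.21) and Kif2c (0.29 and -0.10) were not called. Across the 35 genes the Spearman coefficient of the log2 difference with the length of the longest transcript was -0.48 for 6 h against 2 h and 0.46 for 12 h against 6 h. Across 13998 protein-coding genes it was -0.53 and 0.51. Length did not order every gene, as Cdk1 (4375 bases) and Anln (4605 bases) moved in opposite directions. Genes share the libraries, so these are descriptions.

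For thapsigargin against DMSO the coefficient over the 35 genes was 0.39 at 6 h and 0.04 at 12 h, against 0.13 and -0.05 over protein-coding genes. With offsets for length and GC content in each library, the count lower at 6 h was 27 and the median -0.84, when 3103 of 18039 genes were called lower, against 1585 without the offsets, and the median over all genes was -0.18. At 12 h the median under these offsets was -1.38, against -0.06 over all genes. Levels between genes are compared per kilobase of merged exons. In DMSO cells at 12 h the highest were Cdc20 at 110, Top2a at 92.3 and Mki67 at 75.3 CPM per kilobase, and the lowest Mad2l1 at 15.4, Ndc80 at 15.8 and Ttk at 15.8. In DMSO cells at 6 h Cdc20 stood at 183 and Cenpf at 5.0 CPM per kilobase.

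**Figure D5:**
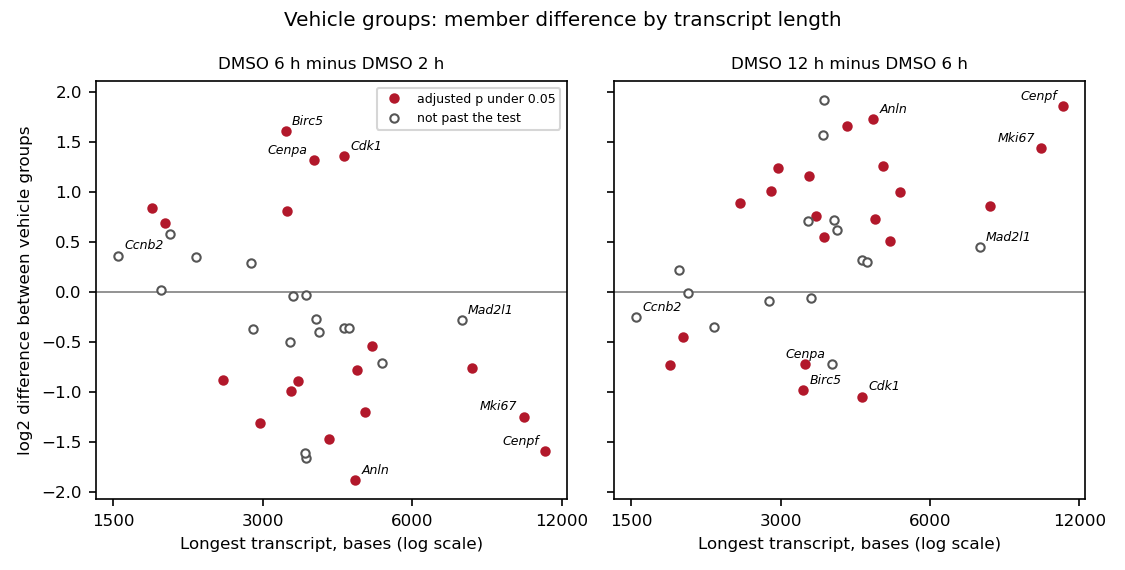
Log2 difference of DMSO at 6 h minus DMSO at 2 h (left) and of DMSO at 12 h minus DMSO at 6 h (right) against the length of the longest transcript in bases on a log axis, for the 35 genes. Cenpf and Mki67, the longest of the 35, lie below 0 on the left and above 0 on the right, and Cdk1 and Birc5 lie on the opposite sides. Anln, at 4605 bases close in length to Cdk1 at 4375, lies on the sides of Cenpf.

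Other genes of the same processes were taken from lists chosen with earlier results of these data known. Of 67 further spindle, kinetochore and cytokinesis genes, 2 were lower at 2 h, where 1.51% of all genes were called lower, 21 at 6 h (8.79% of all genes) and 29 at 12 h (6.77%), with medians of -0.11, -0.53 and -1.13, and none was higher. Ccnf, cyclin F, which marks proteins for degradation, fell by 1.77 ± 0.16 at 2 h, by 2.06 ± 0.16 at 6 h and by 1.68 ± 0.20 at 12 h on the log2 scale (adjusted p = 9.17e-06, 3.73e-07 and 2.83e-05). Ska2, a kinetochore protein, fell by 1.31 ± 0.17 at 6 h, and Cdca2, which recruits a phosphatase to chromosomes, fell by 1.27 ± 0.17 at 12 h. In recovery cells 25 of the 67 were higher than in thapsigargin cells at 6 h, among them Ccnf (2.03 ± 0.16) and Knstrn, a spindle and kinetochore adaptor (1.46 ± 0.18), and 0 differed from DMSO cells at 6 h. Of all genes, 11.6% were higher in recovery cells than in thapsigargin cells.

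Of 18 genes of the anaphase-promoting complex, 2 were lower at 2 h (Cdc26, -0.96 ± 0.21, and Anapc10, -0.91 ± 0.23), 1 at 6 h (Anapc5, -0.72 ± 0.20) and 0 at 12 h. As shares these are 11.1%, 5.56% and 0%, against 1.51%, 8.79% and 6.77% of all genes, where 1 gene of 18 is 5.56%. The medians of the list were -0.01, -0.40 and -0.37, against -0.04, 0.01 and 0.01 over all genes. These shares called lower and medians of all genes apply to the lists that follow as well. Of 18 condensin and cohesin genes, 0, 2 and 4 were lower, with medians of -0.04, -0.07 and -0.84. Those lower included the condensin subunits Ncaph (-0.72 ± 0.21 at 6 h and -1.63 ± 0.27 at 12 h) and Ncapd2 (-0.50 ± 0.15 and -1.15 ± 0.19). Of 14 genes that control mitotic entry (medians -0.02, -0.14 and -0.30), 1, 2 and 3 were lower at 2, 6 and 12 h and 1 was higher at each time. That one, Gadd45a, a stress-induced inhibitor of CDK1, rose by 3.30 ± 0.28 at 2 h, 4.15 ± 0.29 at 6 h and 3.48 ± 0.35 at 12 h, and in recovery cells it fell by 4.18 ± 0.29 against thapsigargin cells at 6 h. In that list Cdc25a, a phosphatase that activates cyclin-dependent kinases, fell by 0.76 ± 0.17 at 2 h and by 0.97 ± 0.17 at 6 h, and Wee1, the kinase that restrains CDK1, fell by 1.47 ± 0.39 at 12 h. Of 20 MuvB, E2F and MYB factors (medians -0.15, -0.27 and -0.58), 0, 5 and 5 were lower. They included the activators of S phase genes E2f1 (-0.84 ± 0.15) and E2f2 (-2.38 ± 0.36) at 6 h. At 12 h they included Mybl2, which encodes B-MYB (-0.90 ± 0.20), and E2f7, a repressor (-1.77 ± 0.44). A difference between these shares and that of the 35 was not tested.

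Markers of other cell types and states differed as well, most of them at 6 h. The 15 muscle differentiation genes summed to 10.7 and 11.6 CPM in thapsigargin cells at 12 h, against 28.6 and 29.4 CPM in DMSO cells, and to between 47.2 and 106 CPM in thapsigargin cells at 6 h, against 92.1 to 169 CPM in DMSO cells. The 6 h sums overlapped. Of the 13 genes tested, 0 were called at 6 h and 3 were lower at 12 h (6.77% of all genes). Between DMSO groups 11 of the 13 were lower at 12 h than at 6 h (16.8% of all genes), with a median of -2.40. Epithelial markers summed to 13.3 to 24.3 CPM in thapsigargin cells at 6 h, against 0.685 to 2.61 CPM in DMSO cells, carried by Krt8 and Krt18, both called higher, with Cdh1 at most at 0.277 CPM and Epcam at 0 in every library. At 12 h they summed to 1.07 and 1.80 CPM in thapsigargin cells, against 0.461 and 1.30 CPM in DMSO cells, and none was called. The 4 adipocyte markers summed to 52.0 to 72.5 CPM in thapsigargin cells at 6 h, against 10.6 to 18.2 CPM in DMSO cells. Pparg alone made up 51.5 to 72.1 CPM of this, with Adipoq at most at 0.0756 CPM. At 12 h the adipocyte sum was 14.1 and 14.4 CPM, against 12.1 and 13.7 CPM. The 4 endothelial markers summed to 2.64 to 4.79 CPM in thapsigargin cells at 6 h, against 0.514 to 0.610 CPM in DMSO cells, and to 2.17 and 2.19 CPM at 12 h, against 0.527 and 0.830 CPM. Macrophage markers summed to 4.13 to 5.64 CPM in thapsigargin cells at 6 h, against 6.66 to 9.49 CPM in DMSO cells, a sum carried by Cd68, which was not called. Lyz2, of the same list, was called higher, at 0.403 to 0.539 CPM against 0.0311 to 0.153 CPM, and Adgre1 was at 0 in every library. Their part in the levels of the 35 genes was not tested.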

How the data were processed

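Polyadenylated RNA of 19 libraries was counted per gene by the authors, and the deposited files hold raw counts, as whole numbers, for 55401 gene identifiers in each library. Per the submitters' processing notes, Trim Galore, STAR 2.5.3a, bedtools 2.31.0, DESeq2 and the build mm10 were used. For the counting program, its strand setting and its annotation, nothing is given in the sources used here. The 5 closing lines of each file name no gene and were left out. Of all counts in a file, 2.51% to 5.94% were in no feature, 5.49% to 8.18% were ambiguous and 3.75% to 15.4% did not align uniquely. Groups came from the labels. No pair of libraries held identical counts.

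Of the identifiers, 55141 matched GENCODE M21 (GRCm38, the assembly of mm10) by base identifier, which gave symbols, lengths and overlaps. Genes were filtered with filterByExpr, scaled by TMM factors and tested in R 4.3.3 with the quasi-likelihood functions of edgeR 4.0.16 (limma 3.58.1), in 1 model with a mean for each of the 7 groups and without a block (common biological coefficient of variation 0.352). Tests were two-sided, with Benjamini-Hochberg adjustment over all 18039 genes of a comparison. Errors of log2 differences are standard errors from this model. CPM are on TMM-scaled library sizes. Promoters were RefSeq entries (GRCm38.p6). Figures used Python 3.11.15 with pandas 2.3.3 and matplotlib 3.10.9. The test code was tested on simulated data.

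Alternatives were DESeq2 size factors, total-count scaling, no low-count filter, DESeq2 1.42.0, a replicate block, offsets for length and GC content, leaving out 2 or 4 libraries, a fit of the compared groups alone, and leaving out each library in turn. Leaving out 4 libraries was added after seeing the data. All 35 genes may be named. In each of the 8 roles the gene with the lowest p at 6 h and that at 12 h have every library's value, as do Foxm1, Cdk1 and Ccnb1. Kif20a, Prc1, Anln and Ect2 were given likewise after their values were seen. From each other list, the 2 called genes with the lowest p in a comparison may be named. The genes and lists were chosen with earlier results of these data known.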

Additional observations from a re-analysis of the deposited data

Results flagged for a closer look

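For 2 genes the response to thapsigargin differed between 6 h and 2 h by a test of the difference itself. For Kif2c the response at 6 h minus that at 2 h was -1.06 on the log2 scale (SE 0.18, edgeR adjusted p = 0.0026). The thapsigargin libraries were below the DMSO libraries at both times, with fitted differences of -1.42 at 6 h and -0.36 at 2 h. For Spc25 it was -0.89 (SE 0.22, adjusted p = 0.0352), from fitted differences of -1.25 at 6 h and -0.37 at 2 h. The 6 h groups have a lower balance of long to short transcripts than the 2 h groups, and the part of this in the difference was not tested. Total-count scaling or no low-count filter ended both calls, and Spc25 lost its call in 10 of 12 fits that left out 1 library (adjusted p up to 0.107). With offsets for length and GC content the values were -1.19 for Kif2c and -1.07 for Spc25.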

How the results depend on the processing

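The direction of the median over the 35 genes held under every alternative in the 3 drug comparisons and in recovery against thapsigargin, while counts of called genes moved. With total-count scaling the called genes numbered 6 at 6 h, 12 at 12 h, 4 in recovery against thapsigargin at 6 h, 0 for the response at 6 h minus that at 2 h and 9 for DMSO at 12 h against 6 h, and the median was -0.02 at 2 h and 0.90 for DMSO at 12 h against 6 h. Of all genes, 16.1%, 8.57%, 18.5%, 1.78% and 25.3% were called with this scaling in the comparisons counted, in the order given. That scaling put the median over all genes at 0.17 at 2 h, 0.14 at 6 h, -0.13 in recovery against thapsigargin, -0.16 for the response at 12 h minus that at 6 h, -0.11 for DMSO at 6 h against 2 h, and 0.29 for DMSO at 12 h against 6 h. With no low-count filter 0 of the 35 were called for the response at 6 h minus that at 2 h, when 1.51% of all genes were. DESeq2 called 3 genes at 2 h, 24 in recovery against thapsigargin, 6 for the response at 6 h minus that at 2 h and 4 for that at 12 h minus that at 6 h. Of all genes it called 9.36%, 30.9%, 8.68% and 2.36%. A fit of the compared groups alone called 2 at 2 h, 3 in recovery against thapsigargin and 1 for the response at 12 h minus that at 6 h. Of all genes tested in those fits, 16.2%, 9.19% and 0.868% were called.

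Offsets for length and GC content gave 7 called genes at 2 h, 27 at 6 h, 30 in recovery against thapsigargin, 6 for the response at 6 h minus that at 2 h, 1 for that at 12 h minus that at 6 h, 10 for DMSO at 6 h against 2 h and 8 for DMSO at 12 h against 6 h. Medians were then -0.84 at 6 h, -1.38 at 12 h, -0.45 for the response at 12 h minus that at 6 h, 0.06 for DMSO at 6 h against 2 h and 0.04 for DMSO at 12 h against 6 h. Of all genes, 9.47%, 29.5%, 34.5%, 7.59%, 1.25%, 37.9% and 22.9% were called with these offsets, in the order of the counts. Medians over all genes were -0.18, -0.06, 0.09, 0.05 and -0.09, in the order of the medians given. Under these offsets Cenpe turned to -0.47 (DMSO at 12 h against 6 h) and 0.63 (6 h against 2 h), Kif4 to -0.13 and 0.16, Nusap1 to -0.0019 at 12 h against 6 h, and Mki67 to 0.14 at 6 h against 2 h. Ect2 under thapsigargin at 6 h turned to -0.16 with these offsets, to -0.70 without the 4 libraries that stand apart, and -0.08 without DMSO replicate 3, and over all fits without 1 library it ranged from -0.45 (without thapsigargin replicate 1) to 0.41. The cause was not tested.

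Without the 2 libraries of high mitochondrial share, 1 gene was called at 2 h (median -0.08), 25 at 6 h, 28 in recovery against thapsigargin, and 10 and 9 for the responses at 6 h minus 2 h and at 12 h minus 6 h. Without the 4 libraries that stand apart there were 9 at 2 h (median -0.08), 33 at 6 h, 33 and 2 in recovery against thapsigargin and against DMSO, and 29 (median -0.73) and 18 for the same responses. Calls over all genes rose as well. Without the 2 libraries they were 10.4%, 37.0%, 35.1%, 11.1% and 4.11% in the order given, against 4.52%, 21.8%, 25.5%, 3.99% and 0.571% with all libraries. Without the 4 they were 27.9%, 50.7%, 58.0%, 6.02%, 33.7% and 15.8% in the order given. For many of the genes the choice of the 4 fixed wider gaps, as given above, and nothing is read from the larger counts. Leaving out 1 library at a time gave 9 to 15 genes at 6 h, 15 to 17 at 12 h, 8 to 27 in recovery against thapsigargin, 1 to 2 for the response at 6 h minus that at 2 h and 3 to 19 for DMSO at 12 h against 6 h, and medians of -0.76 to -0.54 for the response at 12 h minus that at 6 h.

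Whether replicate numbers pair the samples could not be told from groups this small. Deviations from group means correlated at 0.263, -0.539 and 0.347 for same-numbered thapsigargin and DMSO libraries at 6 h. Pairs of unlike number ran from -0.652 to 0.613 there. At 2 h same-numbered libraries gave -0.00217, 0.0147 and 0.0101, and at 12 h -0.00639. Replicate numbers are those of the titles, while the deposited files number the thapsigargin libraries at 12 h 2 and 3 where the titles have 1 and 2, and a block by the files' numbers was not run. With the replicate block 13 genes were called at 6 h, 24 at 12 h, 11 in recovery against thapsigargin and 1 for the response at 6 h minus that at 2 h. Of all genes, 19.2%, 11.0%, 21.9% and 2.79% were called with the block. Called under every alternative were 6 genes at 6 h (Birc5, Cdk1, Kif2c, Nuf2, Plk1 and Spc25), 10 at 12 h (those but Cdk1, with Ccnb2, Kif4, Mki67, Nusap1 and Ttk), 3 in recovery against thapsigargin (Kif2c, Plk1 and Spc25), 5 for DMSO at 6 h against 2 h, 0 for DMSO at 12 h against 6 h and 0 for the response at 6 h minus that at 2 h. The 12 h groups hold 2 libraries each, which limits what their spread can show.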
